A study of Mus musculus with 3 samples.

Results

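The genes described here encode 10 enzymes that remove hydrogen peroxide, lipid peroxides, superoxide and other electrophiles: the glutathione peroxidases Gpx1 and Gpx4, the peroxiredoxins Prdx1, Prdx2 and Prdx5, thioredoxin Txn1 and its reductase Txnrd1, the superoxide dismutases Sod1 and Sod2, and the glutathione transferase Gstp1. They were given by name, and each matched 1 of the 56980 features of the expression tables. The material was spleen of wild-type (WT) mice, ground to single cells and sequenced as 3 libraries of 10x Genomics single-cell RNA, with 1 library for each group. The IR_HSO library came from mice irradiated at 8.5 Gy and given HSO, which the series title spells out as hemp seed oil, naming the radioprotection of splenic lymphocytes as its subject. The IR library came from mice irradiated at 8.5 Gy and given what the label calls a "colvent control", read here as a vehicle, which is uncertain. The control library came from mice without irradiation. The time after irradiation, the dose and route of HSO, the number of mice per library and their age are not given in the sources used here. With 1 library per group there is no replicate check, so each comparison is between libraries, no test was made, and every interval in brackets is a 95% interval for counting error only.

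Glutathione and thioredoxin run parallel reducing chains that both draw on NADPH. Glutathione peroxidases spend glutathione to reduce peroxides, peroxiredoxins spend thioredoxin, and thioredoxin reductase restores thioredoxin. Superoxide dismutases turn superoxide into hydrogen peroxide, which these peroxidases then remove, and glutathione transferases couple glutathione to reactive compounds. Ionising radiation makes radicals from water, and lymphocytes of the spleen are among the most radiosensitive cells of the body.

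UMIs, which count captured RNA molecules, were summed over the cells of a type in each library. Cells with at least 500 UMIs and under 10% mitochondrial UMIs were kept, which left 10608 cells in IR_HSO, 12866 in IR and 9163 in control. The libraries held 45636807 UMIs in IR_HSO, 50836313 in IR and 47298108 in control. The mitochondrial limit removed 16.5% of barcodes in IR_HSO, 4.76% in IR and 3.75% in control. Between 34 and 54 cell barcodes were shared by each pair of libraries. Cells were called T (at least 2 UMIs of the Cd3 chains), NK (Ncr1 without Cd3), B (at least 2 UMIs of Cd79a and Cd79b) or plasma (at least 10 UMIs of Jchain). T cells numbered 6982 in IR_HSO, 8212 in IR and 3731 in control, and NK cells 1046, 1531 and 337 in that order of libraries. Another rule was also passed by 1.66% of T cells in IR_HSO, 2.01% in IR and 14.5% in control. For NK cells it was 1.05%, 1.89% and 16.6%. In control 541 T cells and 56 NK cells also passed the B rule, so T and NK ratios against control set unlike overlaps side by side. The B rule went against its name after irradiation, because 86.0% of its 321 cells in IR_HSO and 77.9% of its 444 cells in IR passed another rule as well, against 13.8% of 4719 in control. Immunoglobulin genes took 53.1% of the UMIs of these B-rule cells in IR_HSO and 53.8% in IR, against 4.26% in control. B and plasma values are therefore given mainly for cells of 1 lineage with immunoglobulin and Jchain left out of the totals, a choice made after the data were seen. These were 45 B cells in IR_HSO, 98 in IR and 4066 in control, and 298, 249 and 58 plasma cells. The plasma cells of 1 lineage passed neither the T nor the NK rule, but cells that also passed the B rule were kept. Of all plasma-rule cells, 237 of 386 in IR_HSO, 275 of 372 in IR and 70 of 72 in control also passed the B rule. The defining B cell markers summed to 4318 CPM (UMIs per 1000000 UMIs of the cells of that type and library) in those B cells of IR_HSO, 6415 CPM in IR and 6276 CPM in control. Plasma cell markers summed to 7279, 7636 and 5953 CPM in the plasma cells, T cell markers to 3672, 4507 and 4653 CPM in T cells and NK cell markers to 14617, 20817 and 22882 CPM in NK cells, in the same order. B cell markers summed to 247, 319 and 1413 CPM in the plasma cells of IR_HSO, IR and control. The part of B cell RNA in the plasma values was not tested. A CPM is a share of the UMIs of those cells and not a number of molecules per cell.

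Red blood cell RNA differed between libraries in every cell type. The 8 erythroid markers summed to 0.932 CPM in T cells of IR_HSO and 1.06 CPM in IR, against 547 CPM in control. In NK cells they summed to 1.35 CPM in IR_HSO and 1.95 CPM in IR, against 4170 CPM in control. Acinar markers of the pancreas went the other way, with 809 CPM in T cells of IR_HSO and 1949 CPM in IR, against 2.36 CPM in control. In NK cells the acinar markers summed to 7125 CPM in IR_HSO and 3971 CPM in IR, against 3.20 CPM in control. Neutrophil markers summed to 207 CPM in T cells of IR_HSO, 12.2 CPM in IR and 45.6 CPM in control. They were also highest in IR_HSO and lowest in IR in NK cells, at 45.5, 5.86 and 11.5 CPM in IR_HSO, IR and control, and in plasma-rule cells, at 10.95, 3.07 and 8.15 CPM. In B-rule cells control was highest instead, at 10.1, 2.51 and 104 CPM in IR_HSO, IR and control.

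The promoter windows of the 4 members at the ends of the ratio range in T cells are shown, since the results below turn on them. Gstp1 and Prdx1 had the highest and the lowest ratio of IR_HSO to IR, and Txn1 and Gpx1 the highest and the lowest ratio of IR to control. Each window holds 250 bases before and 50 bases after a transcription start of RefSeq, on build GRCm38.p6, which is not the GRCm39 build of the expression tables. The windows are chr19:4037863-4038162 on the minus strand for Gstp1, chr4:116685349-116685648 on the plus strand for Prdx1, chr4:57956362-57956661 on the minus strand for Txn1 and chr9:108338830-108339129 on the plus strand for Gpx1. Capitals mark matches, on either strand, to the core of the antioxidant response element that NRF2 binds (TGACNNNGC) or to the site of the AP-1 factors (TGANTCA).
Gstp1: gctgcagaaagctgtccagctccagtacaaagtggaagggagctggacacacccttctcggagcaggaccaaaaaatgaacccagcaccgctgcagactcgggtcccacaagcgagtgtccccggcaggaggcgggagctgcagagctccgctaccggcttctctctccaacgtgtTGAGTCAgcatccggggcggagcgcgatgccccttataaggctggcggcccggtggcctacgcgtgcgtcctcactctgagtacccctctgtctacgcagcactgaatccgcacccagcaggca
Prdx1: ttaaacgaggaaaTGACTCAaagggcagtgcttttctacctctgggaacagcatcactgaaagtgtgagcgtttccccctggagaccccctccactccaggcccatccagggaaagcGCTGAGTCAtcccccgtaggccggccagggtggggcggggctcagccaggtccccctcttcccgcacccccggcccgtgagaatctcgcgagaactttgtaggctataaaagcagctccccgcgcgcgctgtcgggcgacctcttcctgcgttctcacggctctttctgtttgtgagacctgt
Txn1: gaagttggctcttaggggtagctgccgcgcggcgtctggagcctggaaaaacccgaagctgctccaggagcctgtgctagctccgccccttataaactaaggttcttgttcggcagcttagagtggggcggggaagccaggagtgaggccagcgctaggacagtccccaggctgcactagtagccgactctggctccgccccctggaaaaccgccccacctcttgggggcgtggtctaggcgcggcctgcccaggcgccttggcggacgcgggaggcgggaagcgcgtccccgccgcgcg
Gpx1: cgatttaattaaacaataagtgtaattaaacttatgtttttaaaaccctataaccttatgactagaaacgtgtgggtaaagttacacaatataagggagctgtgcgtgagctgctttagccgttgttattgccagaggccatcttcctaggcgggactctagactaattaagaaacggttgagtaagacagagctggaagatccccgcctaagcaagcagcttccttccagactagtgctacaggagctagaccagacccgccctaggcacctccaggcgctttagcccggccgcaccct
The Gstp1 window held 1 AP-1 match, which begins 74 bases before the start. The Prdx1 window held AP-1 matches 237 and 131 bases before the start, and the second of them overlaps an antioxidant response element core 133 bases before the start. The windows of Txn1 and Gpx1 held neither motif. Over the 15 windows of the 10 members, an antioxidant response element core was found for 3 members (Prdx1, Txnrd1 and Sod1) and an AP-1 match for 2 (Prdx1 and Gstp1). Of all 32851 windows of the same length, 12.4% held the core and 7.81% the AP-1 site. These shares are per window, while a member was counted for a match in any of its windows, so the figures are not like for like. A match is a string of letters, and no match says only that these letters are not in the window. Other spellings of the antioxidant response element core were not searched, so its absence from the Gstp1 count holds for TGACNNNGC alone.

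Irradiation went with small shifts of the enzyme transcripts in T cells. Txn1 and Sod2 passed the threshold of 1.5-fold as higher in IR than in control, and no member was 1.5-fold lower, so 2 of 10 members were called higher where 8.7% of the 6311 measured genes were, and 0 of 10 lower where 2.99% were. The median log2 ratio of the 10 members was 0.29, beside 0.10 for all measured genes. With scaling by size factors, which centres all genes near 0, no member was called higher and Gpx1 was called lower. In NK cells no member was called higher, where 6.9% of genes were, and 1, Gstp1, was called lower, where 7.41% were. Together the 10 members took 0.134% of the UMIs of T cells in IR_HSO, 0.142% in IR and 0.122% in control, and 0.140%, 0.144% and 0.139% of those of NK cells in the same order.

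HSO with irradiation went with 1 member, Gstp1, called higher in each of the 4 cell types. In T cells it was 1 of 10 members called higher in IR_HSO than in IR, where 4.46% of genes were, and 0 of 10 were called lower, where 4.04% were. In NK cells it was again 1 of 10 called higher, where 4.31% of genes were, and 0 of 10 lower, where 4.11% were. The median log2 ratio of the members was -0.23 in T cells and -0.017 in NK cells, beside 0.0084 and -0.037 for all measured genes. Among cells of 1 lineage with immunoglobulin left out of the totals, the members called in IR against control were the same 2 in T cells, where 9.85% of genes were higher and 2.22% lower, and Gstp1 in NK cells, where 8.04% were higher and 5.8% lower. In IR_HSO against IR, those cells gave Gstp1 and Gpx4 as higher in T cells, where 4.46% of genes were higher and 4.12% lower, and Gstp1 in NK cells, where 4.11% were higher and 4.58% lower. The IR library stands in both comparisons, so a low or high value of it moves both.

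**Figure D1:**
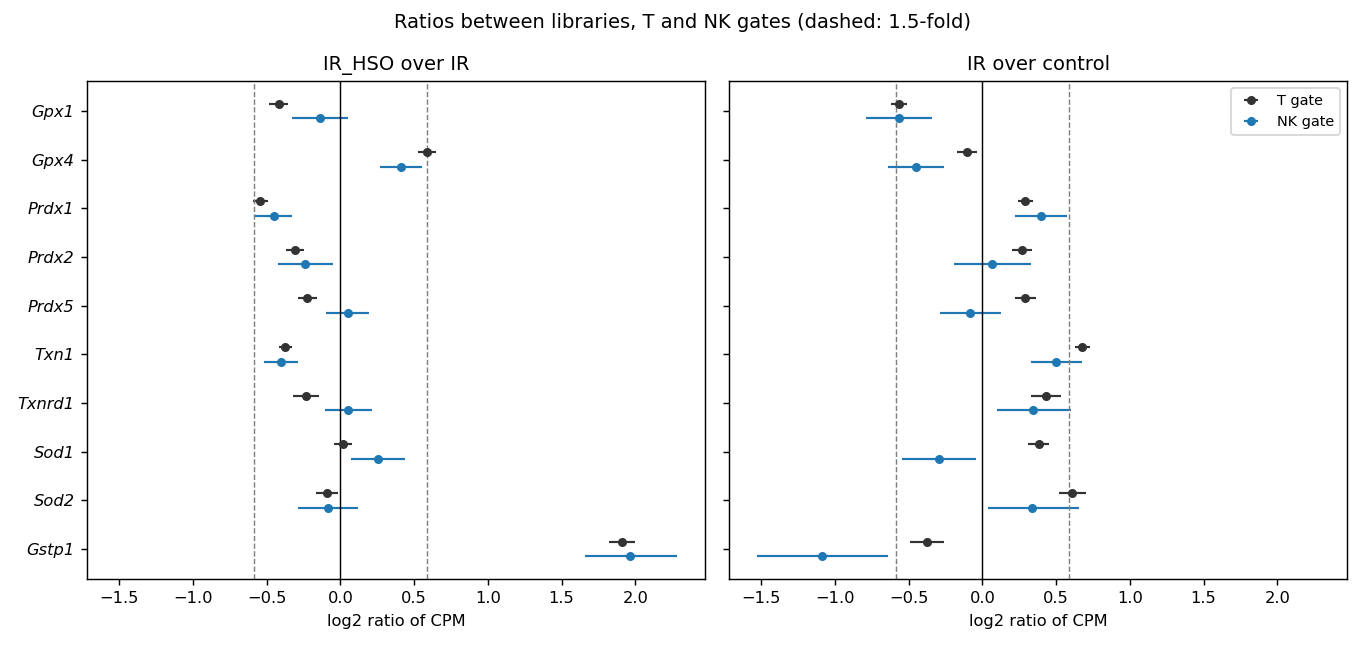
log2 ratio of CPM, with no CPM added, for each of the 10 genes in T and NK cells, IR_HSO over IR on the left and IR over control on the right, where bars are 95% counting intervals of ratios between 2 libraries and dashed lines mark 1.5-fold. For IR_HSO over IR, Gstp1 stands at 3.76-fold in T cells and 3.91-fold in NK cells, while the other members lie between ratios of 0.686 and 1.5, Gpx4 in T cells being on the line.

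Gpx1, the abundant selenium-dependent glutathione peroxidase of the cytosol and mitochondria, had 108 CPM in T cells of IR_HSO, 145 CPM in IR and 215 CPM in control. In NK cells it had 94.4, 104 and 154 CPM in the same order. The control libraries were highest in both cell types. The ratio of IR to control was 0.675 [0.650, 0.703] over all T cells and 0.674 [0.578, 0.789] in NK cells, short of the 1.5-fold call in both. Within T cells it passed 1.5-fold in Foxp3-positive cells (0.503 [0.439, 0.576]) and the other T cells (0.562 [0.526, 0.600]). It did not in CD8 cells (0.748) or Foxp3-negative CD4 cells (0.735). By division, the ratio was 0.447 [0.412, 0.485] in T cells with a UMI of Mki67 or Top2a and 0.743 in those without. Gpx1 is abundant in red cells, and control cells that passed no cell type rule, which held 6.18% haemoglobin UMIs, had 1062 CPM of it. Those cells were not typed further and need not be red cells. Monocyte and macrophage markers also differed, with 83.0 CPM in T cells of control and 5.01 CPM in IR, and 147 and 5.28 CPM in NK cells. In cells without any haemoglobin UMI the log2 ratio of IR to control was -0.37 in T cells and -0.090 in NK cells, against -0.56 in both with all cells. In T cells that passed no other rule it was -0.42. With stricter cell type rules, which left out T cells with a Cd79a or Cd79b UMI, it was -0.18 in T cells. B cells of control held more Gpx1 than T cells, as given below. The part of red cell, monocyte or B cell RNA in the Gpx1 ratios was not tested.

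Gpx4, the selenoenzyme that reduces lipid peroxides within membranes and holds off ferroptosis, had 179 CPM in T cells of IR_HSO, 119 CPM in IR and 128 CPM in control. In NK cells it had 202, 152 and 207 CPM. IR was the lowest library in both cell types. The ratio of IR_HSO to IR was 1.5 [1.44, 1.56] in T cells and 1.33 [1.21, 1.47] in NK cells. On the log2 scale with 1 CPM added, the T cell value of 0.58 lies just under the threshold, and it passed in 5 of the alternatives for T cells, with values up to 0.64. Within T cell subsets the ratio was 1.13 [0.985, 1.30] in CD8 cells, 1.45 in Foxp3-negative CD4 cells, 1.43 in Foxp3-positive cells and 1.46 in the other T cells. Foxp3-positive cells, which had 250 CPM in IR_HSO and 175 CPM in IR, made up 20.5% of T cells in IR_HSO and 9.58% in IR. Counts of Gpx4 are uncertain to the extent that reads were split with the pseudogene Gpx4-ps2, which had 460 UMIs in T cells of IR_HSO, 291 in IR and 202 in control, beside 5372, 4251 and 2936 UMIs of Gpx4.

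The peroxiredoxins stayed within 1.5-fold over all T cells and over all NK cells, though Prdx1 passed it in some T cell subsets. Prdx1, a cytosolic peroxiredoxin that thioredoxin recycles, had 169 CPM in T cells of IR_HSO, 247 CPM in IR and 202 CPM in control, and 199, 272 and 207 CPM in NK cells. IR was the highest library in both. The ratio of IR_HSO to IR was 0.686 [0.663, 0.710] in T cells, the lowest of the 10 members, and 0.730 [0.671, 0.795] in NK cells. With size factors the T cell log2 ratio of -0.54 became -0.64 and was called lower. In CD8 T cells Prdx1 was 1.74-fold lower in IR_HSO, with 168 CPM, than in IR, with 292 CPM. In Foxp3-negative CD4 cells it was 1.51-fold lower, at a ratio of 0.662 [0.621, 0.707]. The ratio was 0.744 in Foxp3-positive cells and 0.710 in the other T cells.

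Prdx2, the cytosolic peroxiredoxin that is most abundant in red cells, had 111 CPM in T cells of IR_HSO, 138 CPM in IR and 115 CPM in control, and 91.3, 108 and 103 CPM in NK cells. Prdx5, found in mitochondria, peroxisomes and cytosol, had 114, 133 and 109 CPM in T cells and 161, 156 and 165 CPM in NK cells. Neither passed 1.5-fold in either comparison, and the log2 ratios of IR to control ranged between 0.17 and 0.51 for Prdx2 in T cells over the alternatives. Prdx2 also stood out in control cells outside the 4 cell type rules, with 286 CPM, beside 88.0 CPM in IR_HSO and 101 CPM in IR.

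Txn1, the small dithiol protein that recycles peroxiredoxins, had 233 CPM in T cells of IR_HSO, 302 CPM in IR and 189 CPM in control. In NK cells it had 233, 307 and 217 CPM. IR was highest and control lowest in both. Txn1 was higher in IR than in control by 1.60-fold [1.54, 1.65] in T cells, and the ratio in NK cells was 1.41 [1.26, 1.59]. Size factors brought the T cell log2 ratio to 0.58, just under the threshold, and the other alternatives gave values between 0.59 and 0.96. The ratio of IR_HSO to IR was 0.772 [0.749, 0.796] in T cells and 0.757 [0.700, 0.820] in NK cells. After each T cell was thinned to 1000 UMIs, 17.2% of cells had a Txn1 UMI in IR_HSO, 22.1% in IR and 14.9% in control, beside 51.3%, 55.4% and 53.6% before thinning. All 10 enzymes are made in nearly every cell type, so no cell type lacking them was at hand to gauge free RNA.

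Txnrd1, the cytosolic selenoenzyme that reduces thioredoxin with NADPH, had 58.5 CPM in T cells of IR_HSO, 68.8 CPM in IR and 51.0 CPM in control. NK cells held 138, 133 and 105 CPM. In each library the level in NK cells exceeded that in T cells, by 2.38-fold [2.17, 2.61] in IR_HSO, 2.01-fold [1.84, 2.19] in IR and 2.30-fold [1.91, 2.75] in control among cells of 1 lineage. No ratio between libraries passed 1.5-fold in T or NK cells.

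Sod1, the copper and zinc superoxide dismutase of the cytosol, had 141 CPM in T cells of IR_HSO, 139 CPM in IR and 107 CPM in control, with a ratio of IR to control of 1.30 [1.24, 1.37]. In NK cells it had 114, 95.3 and 117 CPM, and the ratio of IR to control was 0.815 [0.686, 0.971]. Sod2, the manganese enzyme of the mitochondrial matrix and a known target of NF-kB, had 84.9 CPM in T cells of IR_HSO, 90.4 CPM in IR and 59.3 CPM in control. Both irradiated libraries lay above control, and the IR level of Sod2 was higher by 1.52-fold [1.43, 1.63]. It fell under the threshold with size factors (log2 ratio 0.51), with abundant gene classes left out of the totals (0.52) and at the T cell subset mix of control (0.54). In NK cells Sod2 had 83.9, 88.9 and 70.3 CPM.

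Gstp1, the pi-class transferase that couples glutathione to electrophiles, had 143 CPM in T cells of IR_HSO, 38.0 CPM in IR and 49.3 CPM in control. NK cells held 84.8, 21.7 and 46.0 CPM. IR_HSO was highest and IR lowest in both, the order that the neutrophil markers given above also had in T and NK cells. In B-rule cells Gstp1 had 57.9, 14.5 and 37.7 CPM in IR_HSO, IR and control, where neutrophil markers were highest in control. The part of neutrophil RNA in the Gstp1 result was not tested. After thinning to 1000 UMIs the log2 ratio of IR over control in T cells was 0.026. Gstp1 was 3.76-fold [3.54, 4.0] higher in IR_HSO than in IR in T cells and 3.91-fold [3.16, 4.87] higher in NK cells. Its intervals overlapped across the T cell subsets, with folds of 4.07 [3.37, 4.95] in CD8 cells, 3.83 [3.44, 4.26] in Foxp3-negative CD4 cells, 3.79 [3.11, 4.65] in Foxp3-positive cells and 3.89 [3.55, 4.27] in the other T cells. Over the alternatives the log2 ratio lay between 1.76 and 1.95 in T cells and between 1.72 and 2.03 in NK cells. At 1000 UMIs per cell, a Gstp1 UMI was found in 12.2% of T cells in IR_HSO, 3.91% in IR and 3.90% in control, beside 37.3%, 14.1% and 24.7% before thinning.

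**Figure D2:**
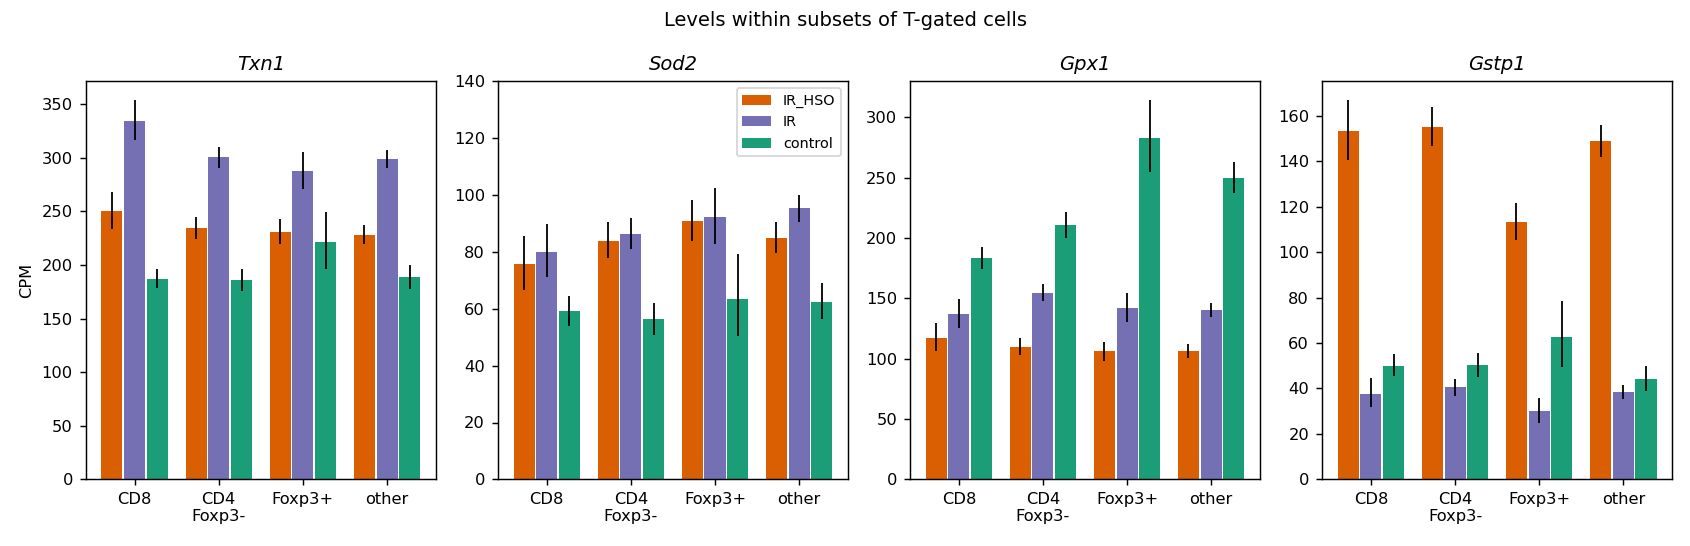
CPM of Txn1, Sod2, Gpx1 and Gstp1 within subsets of T cells, defined by UMIs of Cd8a or Cd8b1, Cd4 and Foxp3, in the IR_HSO, IR and control libraries, with bars as 95% counting intervals. Gstp1 lies between 113 and 155 CPM in the subsets of IR_HSO and between 29.9 and 62.7 CPM in those of IR and control.

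In NK cells Gstp1 was 2.12-fold lower in IR than in control, a fold of 0.471 [0.347, 0.643] that rests on 111 UMIs in IR and 72 in control. After thinning to 1000 UMIs the log2 ratio was -0.0069, with a Gstp1 UMI in 2.04% of NK cells in IR and 2.12% in control. Reads may also be split between Gstp1 and its close copies. The copy Gstp2 had 63 UMIs in T cells of IR_HSO, 8 in IR and 17 in control. Gstp3 had 2190, 2027 and 739 UMIs and the pseudogene Gstp-ps 249, 292 and 133.

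Gstp1 was not alone in this pattern between the irradiated libraries. Among 4831 genes measured in all 4 cell types of 1 lineage, 29 (0.600%) were at least 1.5-fold higher in IR_HSO than in IR in each of them and 47 (0.973%) lower in each. By the median of its 4 log2 ratios (1.90), Gstp1 was among the 10 genes furthest from 0. The others, named after their values were seen, included Rn18s-rs5 (1.93) and Mir6236 (2.71), both classed here as ribosomal RNA. They also included the mitochondrial gene mt-Nd3 (2.18) and Atp5g2 (1.97), a subunit of the ATP synthase. Of the 29 genes, 2 were among the 13 measured mitochondrial genes, 8 among the 97 ribosomal protein genes and 3 among the 29 pseudogenes, and 13 of those pseudogenes were lower. Median mitochondrial UMIs per barcode were 3.45% in IR_HSO, 2.42% in IR and 2.15% in control. The part of these differences in the Gstp1 result was not tested.

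**Figure D3:**
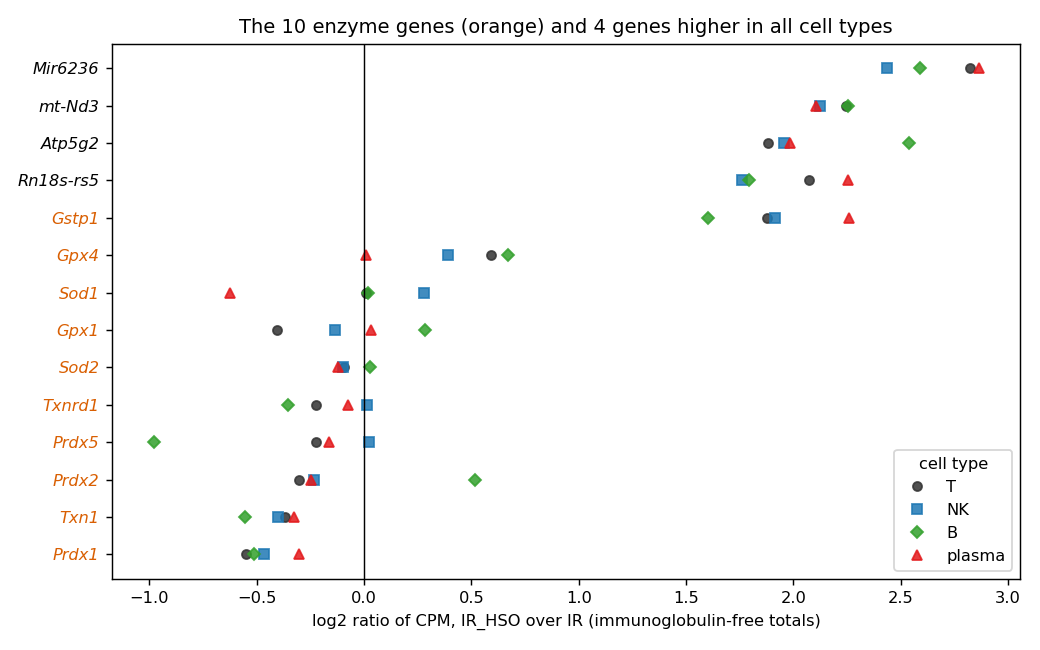
log2 ratio of IR_HSO over IR in T, NK, B and plasma cells of 1 lineage for the 10 enzyme genes and 4 other genes, named above, that were at least 1.5-fold higher in all 4 cell types. Gstp1 lies between 1.60 and 2.26, near Atp5g2 and Rn18s-rs5, and no other enzyme gene passes 1.5-fold in all 4.

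Among B cells of 1 lineage, 3 of 10 members were called higher in IR than in control, where 14.4% of genes were, and 0 of 10 lower, where 12.4% were. Txn1 had 180 CPM in IR_HSO, 265 CPM in IR and 138 CPM in control, and was higher in IR by 1.93-fold [1.52, 2.41] against control. Sod2 was 1.71-fold [1.14, 2.48] higher, and Txnrd1 1.68-fold [1.01, 2.65] higher on 19 UMIs in IR. Gpx1 had 404 CPM in IR_HSO, 332 CPM in IR and 407 CPM in control, above its T cell level by 3.64-fold, 2.25-fold and 2.06-fold in the same order. With 45 and 98 B cells, 22.1% of genes were called higher and 22.1% lower in IR_HSO than in IR. Against that, Gstp1 was 3.11-fold [1.31, 7.91] higher on 17 UMIs in IR_HSO and 9 in IR, Gpx4 1.60-fold [0.967, 2.64] higher and Prdx5 1.99-fold lower, at a ratio of 0.504 [0.262, 0.913]. With every B-rule cell and full totals, 0 of 10 members were higher in IR than in control, where 5.16% of genes were, and 4 of 10 were lower, where 80.1% were. In the same cells Gstp1 was 1 of 10 called higher in IR_HSO than in IR, where 5.02% of genes were, and 0 of 10 were lower, where 6.07% were.

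Among cells of 1 lineage, with immunoglobulin left out of the totals, plasma cells held the highest Txn1, Prdx1 and Sod2 levels of the 4 cell types in each library. Txn1 had 536 CPM in plasma cells of IR_HSO, 671 CPM in IR and 885 CPM in control, which was 2.28-fold, 2.21-fold and 5.03-fold the T cell level. Prdx1 had 338, 418 and 493 CPM. Sod2 had 137, 149 and 92.7 CPM, with intervals that overlapped those of B cells in IR_HSO and IR and of NK cells in control. With full totals and every cell of each rule the order turned in the irradiated libraries, where Txn1 had 201 CPM in plasma-rule cells and 233 CPM in T cells of IR_HSO, and 244 and 302 CPM in IR. The ratio of IR to control for Txn1 was 0.758 [0.678, 0.849], below 1 where the T and B cell ratios were above. One member, Sod2, was called higher in IR than in control (1.60-fold [1.18, 2.2]), where 14.8% of genes were. Gpx1 and Gstp1 were called lower, where 23% of genes were, with ratios of 0.555 [0.446, 0.691] and 0.271 [0.162, 0.440]. Gstp1 had 120 CPM in IR_HSO, 24.3 CPM in IR and 89.6 CPM in control, and was 4.95-fold [3.20, 7.94] higher in IR_HSO than in IR, the 1 member called higher where 8.68% of genes were. Sod1 was the 1 member called lower, where 12.7% of genes were, at 121 CPM in IR_HSO and 187 CPM in IR. With all plasma-rule cells and full totals, 0 of 10 members were higher in IR than in control, where 3.71% of genes were, and 4 of 10 lower, where 57.7% were. The 1 member higher in IR_HSO than in IR was again Gstp1, where 6.1% of genes were, and none was lower, where 6.1% were.

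**Figure D4:**
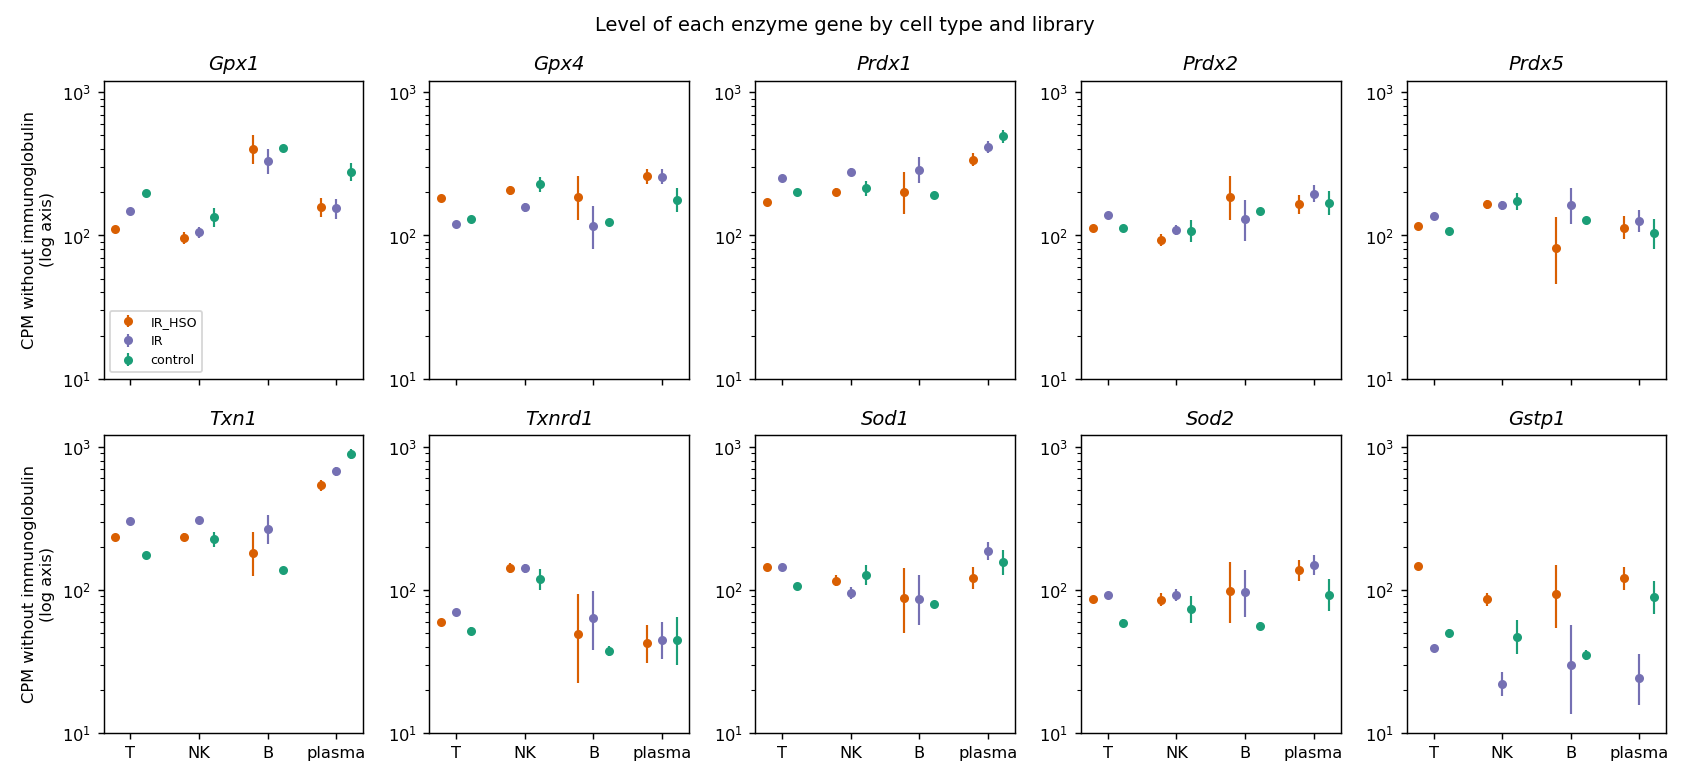
CPM of the 10 genes, on a log axis, in T, NK, B and plasma cells of 1 lineage in the IR_HSO, IR and control libraries, with immunoglobulin left out of the totals and 95% counting intervals as bars. Txn1, Prdx1 and Sod2 are highest in plasma cells, Txnrd1 in NK cells and Gpx1 in B cells, while IR_HSO stands above IR for Gstp1 in all 4 cell types.

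Dividing cells, marked by a UMI of Mki67 or Top2a, made up 10.47% of T cells in IR_HSO, 13.7% in IR and 9.06% in control. Txn1 was higher in them than in the other T cells of the same library, by 1.61-fold [1.52, 1.70] in IR_HSO, 1.75-fold [1.68, 1.82] in IR and 2.68-fold [2.51, 2.86] in control. Prdx1 followed at ratios of 1.41, 1.49 and 1.54. For Gpx1 the ratio was 1.11 [1.01, 1.22] in IR_HSO, 1.10 [1.03, 1.17] in IR and 1.82 [1.71, 1.95] in control. For Prdx2 it was 1.18 [1.07, 1.28], 1.13 [1.06, 1.21] and 2.09 [1.91, 2.27], so that only control passed 1.5-fold for these 2 genes. The part of red cell RNA in the dividing cells of control was not tested. Within dividing cells the ratio of IR to control for Txn1 was 1.12 [1.06, 1.2], and within the others Txn1 was 1.72-fold [1.65, 1.80] higher in IR. Among T cell subsets Txn1 was higher in IR against control by 1.79-fold [1.66, 1.93] in CD8 cells, 1.62-fold [1.51, 1.72] in Foxp3-negative CD4 cells and 1.59-fold [1.49, 1.69] in the other T cells. The ratio in Foxp3-positive cells was 1.30 [1.14, 1.49]. CD8 cells made up 8.61% of T cells in IR and 34.9% in control.

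**Figure D5:**
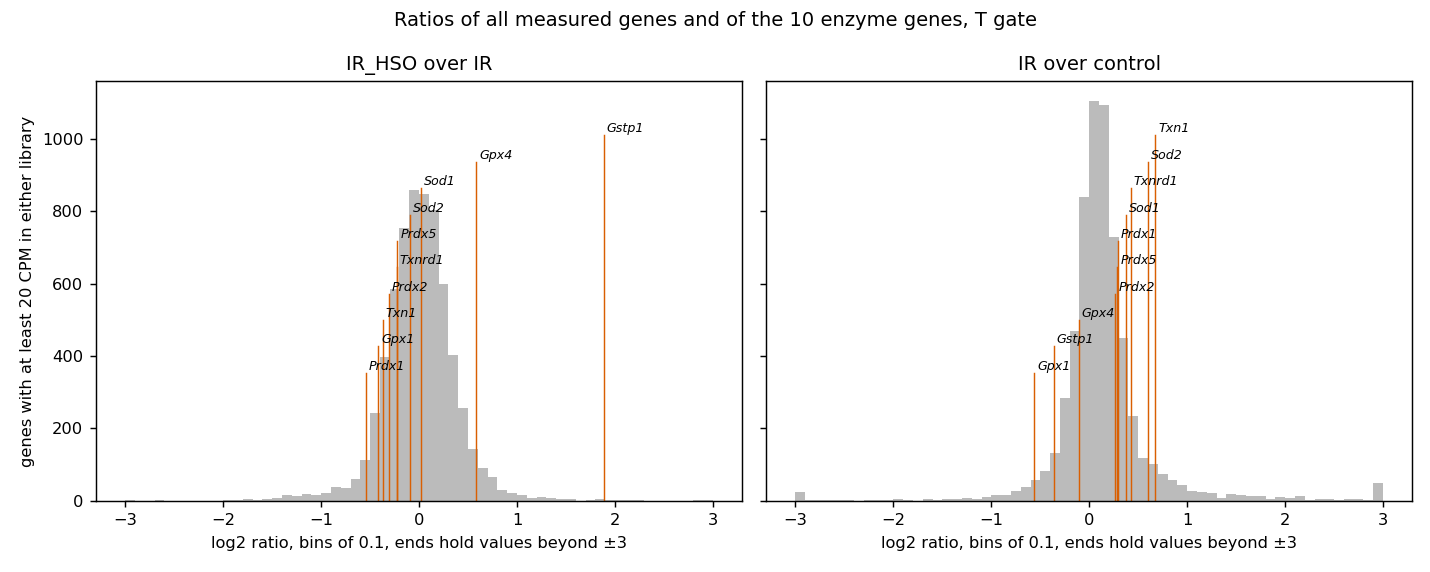
Histogram of log2 ratios of all genes with at least 20 CPM in either library of T cells, for IR over control and IR_HSO over IR, with the 10 enzyme genes marked. Most members lie within the bulk of genes, and Gstp1 lies in the far upper tail of IR_HSO over IR.

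Other genes of the glutathione, thioredoxin, superoxide and selenoprotein systems were counted from 6 lists of 100 genes, of which 56 reached 20 CPM in T cells. In T cells 5 of the 56 were called higher in IR against control, where 8.7% of all measured genes were, and 3 lower, where 2.99% were, with a median log2 ratio of 0.11, close to that of all genes. In IR_HSO against IR 3 were higher, where 4.46% of genes were, and 0 lower, where 4.04% were, with a median of -0.14. In NK cells 3 of 56 were higher and 5 lower in IR than in control, where 6.9% and 7.41% of genes were. Of 57 measured there, 1 was higher and 2 lower in IR_HSO than in IR, where 4.31% and 4.11% of genes were. The 13 measured genes of the NRF2 pathway and NADPH supply held no gene past 1.5-fold in T cells in either comparison, with ranges of -0.34 to 0.34 for IR over control and -0.50 to 0.42 for IR_HSO over IR.

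The partners of thioredoxin and peroxiredoxin past 1.5-fold in T cells were Prdx4, Txnip and Sesn1. Prdx4, the peroxiredoxin of the endoplasmic reticulum, had 30.7 CPM in IR_HSO, 33.01 CPM in IR and 16.8 CPM in control, and was higher in IR than in control by 1.96-fold [1.75, 2.21]. Plasma cells held far more of it, and plasma cell markers in T cells summed to 379 CPM in IR_HSO, 381 CPM in IR and 256 CPM in control; their part in the result was not tested. Txnip, which binds and inhibits thioredoxin, had 689, 552 and 357 CPM with IR above control by 1.55-fold [1.51, 1.59]. Sesn1, a p53 target, had 74.2 CPM in IR_HSO and 44.0 CPM in IR, a 1.69-fold [1.58, 1.80] difference, and 60.96 CPM in control.

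Among the transferases Gstp3 was 1.76-fold [1.62, 1.92] higher in IR, with 56.8 CPM, than in control, with 32.3 CPM. Gstt2, a theta-class transferase, was 1.66-fold [1.504, 1.83] higher in IR_HSO, with 33.2 CPM, than in IR, with 20.02 CPM. Subunits of the NADPH oxidase, which makes superoxide in phagocytes and B cells, differed in both directions. Cyba, the membrane subunit p22phox, was 1.56-fold [1.52, 1.597] higher in IR, with 662 CPM, than in control, with 424 CPM. Ncf1, a cytosolic subunit, had 7.39 CPM in IR and 21.0 CPM in control, a ratio of 0.352 [0.302, 0.410]. Cybb, the catalytic subunit, had 38.3 CPM in IR_HSO, 19.3 CPM in IR and 38.4 CPM in control, so that IR lay 1.99-fold below control and IR_HSO 1.98-fold above IR. Monocyte and macrophage markers, 10 in the list, summed to 6.06 CPM in T cells of IR_HSO, 5.01 CPM in IR and 83.0 CPM in control. B cell markers summed to 245, 292 and 601 CPM there. Neutrophil markers in T cells, at the levels given above, were highest in IR_HSO, and the part of these other cells in the values was not tested.

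Secreted selenoproteins also differed in T cells. Gpx3, the extracellular glutathione peroxidase, had 775 UMIs in IR and 2 in control, or 21.7 and 0.0873 CPM, with a counting interval of the ratio of 68.5 to 2055. Cells outside the 4 cell type rules had 143 CPM of it in IR_HSO and 383 CPM in IR, against 0.504 CPM in control. Beside it stromal markers in T cells summed to 149 CPM in IR_HSO, 220 CPM in IR and 107 CPM in control. That sum pools 6 markers, which can differ from it singly, and 4 of them had a UMI in T cells of control. Among the 6, Dcn had a log2 ratio of IR over control of 7.02 in T cells of 1 lineage, and ratios of the others are not given here. The part of RNA from other cells was not tested. Selenop, which carries selenium in plasma, had 58.2 CPM in IR and 91.2 CPM in control, a ratio of 0.638 [0.600, 0.679].

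Across the 12 library and cell type values, each member's closest genes were sought by Pearson's r of log2 CPM among 5460 genes. These r values are descriptions, since the 12 values come from 3 libraries, share cells between rules and follow the immunoglobulin share of the totals. For Gstp1 the 3 closest included Atp5g2 (0.96) and mt-Nd3 (0.93), for Gpx4 Cep250 and Ric1, and for Prdx5 Btbd7 and Smim30. For Gpx1 the 3 were Hmgn1, Srebf2 and Ppdpf, for Prdx1 Mrps12, Swi5 and Mrpl18, and for Prdx2 Nfu1, Rbm38 and Dnajc9, all at 0.94 or more. Txnrd1 was closest to Ptpn4, Gm19585 and Efhd2, Sod1 to Smim8, Inpp4a and Zscan26, and Sod2 to Dynll2, Ei24 and Thyn1. Txn1 had no 3 genes at 0.9 or more.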

How the data were processed

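Raw UMI counts for each gene and barcode were deposited. Per the file headers they came from Cell Ranger 7.0.1, and per the submitters' processing notes the build was GRCm39. The annotation release is not given in the sources used here. Barcodes had at least 500 UMIs as deposited. Counts were summed per library and cell type rule and scaled to CPM of that total. Both sides of a log2 ratio had 1 CPM added, and a gene at 20 CPM or more in either library was called higher or lower at 1.5-fold (log2 0.585). Levels carry exact Poisson intervals, ratios exact conditional intervals and shares Clopper-Pearson intervals, all at 95% and for counting error only, and UMIs of 1 library are not replicates. No doublet caller was run. Leaving out cells that passed several rules, or the 5% of cells with the most UMIs, served in its place. The script was tested on simulated counts.

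Members and lists were chosen with earlier results of these data known. All 10 members are named. Other redox genes are named where they passed 20 CPM and 1.5-fold in T cells, and the closest genes where the third reached an r of 0.9. Some genes that these rules gave are not reported here. Alternatives were another cell filter, stricter rules, other totals, median-of-ratios size factors, thinning to 1000 UMIs, other floors on CPM, non-dividing T cells and a fixed T cell subset mix. Cells without haemoglobin UMIs, and cells of 1 lineage with immunoglobulin-free totals, were added after the data were seen. Promoters came from RefSeq (GRCm38.p6), where 10 of 10 members matched, and proteins were not used here. Python 3.11.15, numpy 2.4.6, scipy 1.17.1, pandas 2.3.3 and matplotlib 3.10.9 were used.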

Additional observations from a re-analysis of the deposited data

Results flagged for a closer look

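Txn1 moved in opposite directions in T and plasma cells between IR and control: its log2 ratio was 0.67 in T cells and -1.05 in plasma-rule cells, with 1 library on each side. Over all measured genes the median log2 ratio was 0.10 in T cells and -0.68 in plasma-rule cells, where 57.7% of genes were called lower. The difference between the cell types was not tested. In plasma cells of 1 lineage with immunoglobulin-free totals the Txn1 ratio was 0.758, short of the 1.5-fold call. Over the alternatives that gave a value the log2 ratio in plasma-rule cells lay between -1.24 and -0.40. Plasma cells of 1 lineage had a median of 10803 UMIs in IR and 19732 in control.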

How the results depend on the processing

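Each group has 1 library, so leaving out libraries in turn gave no value and no spread between mice is known. No paired analysis was possible because each group has 1 library and the result comes from no test. Leaving plasma cells to those in 1 rule left 2 control cells, too few for a value against control, and leaving out the 5% of cells with the most UMIs also left too few. Where a value changed, the cause was not tested.

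The counts of members past 1.5-fold that moved by over 1.5 times are given as higher, then lower, of 10, with the percent of all measured genes in brackets. For IR over control in T cells they were 1 and 1 (7.54%, 4.03%) with abundant gene classes left out of the totals and 0 and 1 (7.06%, 3.94%) with size factors, and 1 was higher (7.91%) at the control subset mix. In NK cells 1 was higher with size factors (9.01%) or without haemoglobin UMIs (7.71%), and 0 lower after thinning (12.3%). For IR over control in B-rule cells, 3 and 0 (13.9%, 12.8%) were found with cells of 1 rule, 1 and 1 (9.27%, 24.4%) without the 5% of cells with the most UMIs, 5 and 1 (19.4%, 20.8%) with other totals, 4 and 1 (18.7%, 24.1%) with size factors, 1 and 2 (8.19%, 53.9%) after thinning and 3 and 0 (14.4%, 12.4%) for 1 lineage, and 1 was higher (5.26%) with stricter rules. In plasma-rule cells 2 were lower with other totals (15.7%) or size factors (12.9%), 1 was higher after thinning (17.3%), and 1 and 2 were found for 1 lineage (14.8%, 23%).

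For IR_HSO over IR in T cells, 2 were higher with cells of 1 rule (4.46%), other totals (6.68%), thinning (4.59%), non-dividing cells (4.197%) or 1 lineage (4.46%), Gpx4 being the second, and 1 lower with size factors (5.79%). In B-rule cells 2 and 1 were found with cells of 1 rule (22.3%, 21.4%) and for 1 lineage (22.1%, 22.1%), and 2 were lower after thinning (30.9%). In plasma-rule cells 3 and 2 were found with cells of 1 rule (11.1%, 47%), 3 were lower after thinning (24.8%) and 1 was lower for 1 lineage (12.7%).

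Among ratios past 1.5-fold, signs turned for Prdx5 and Prdx2 in B-rule cells, IR over control. In B-rule cells the log2 ratio of Prdx5 became 0.31 with cells of 1 rule, 0.14 with other totals, 0.094 with size factors and 0.34 for 1 lineage, and that of Prdx2 became 0.26 without the 5% of cells with the most UMIs, 0.33 with other totals, 0.29 with size factors and 0.016 after thinning. With ratios within 1.5-fold included, the sign differed between settings for 1 of 10 members in T cells, 1 in NK cells, 7 in B-rule cells and 6 in plasma-rule cells for IR over control, and for 1, 3, 5 and 5 for IR_HSO over IR. The Gstp1 ratio of IR_HSO over IR kept its direction and its call in T and NK cells under each alternative run.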

Other observations

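Barcodes with 10% or more mitochondrial UMIs, 2102 in IR_HSO, 643 in IR and 357 in control, were outside every comparison. Of their non-mitochondrial UMIs, Gstp1 took 45.0 CPM [35.4, 56.5] in IR_HSO, 18.3 CPM [8.75, 33.6] in IR and 3.06 CPM [0.0776, 17.1] in control, the last from 1 UMI. Txn1 took 84.1, 157 and 36.8 CPM in the same order of libraries, and Gpx1 61.9, 58.4 and 168 CPM. Gstp1 was therefore highest in IR_HSO, Txn1 highest in IR and Gpx1 highest in control, as in T cells. The lowest library for Gstp1 was control here but IR in T cells. Gpx4, Prdx1, Prdx2, Prdx5 and Sod2 also kept the highest library they had in T cells, while Sod1 and Txnrd1 did not. Sod1 took 73.3, 74.8 and 110 CPM in IR_HSO, IR and control, and Txnrd1 76.3, 58.4 and 42.9 CPM.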
